A study of Mus musculus with 5 samples.

Results

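Cholesterol and fatty acids are both built from cytosolic acetyl-CoA, and this account follows 35 genes of the 2 routes in B16F10 cells, a pigmented mouse melanoma line. The genes were taken by symbol from the deposited expression table, where all 35 were found among 54699 genes. They comprise 19 genes of cholesterol synthesis and sterol transfer, 11 genes of fatty acid synthesis and desaturation, and 5 regulators.

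RNA was sequenced from 5 cultures, 1 library per group, and every culture had received a lentivirus. The sample titles call the cells of the 3 treated groups differentiated. Cells with forced expression of mouse Myod1 (a muscle transcription factor) and cells with forced expression of mouse Pparg (the nuclear receptor that drives fat cell formation) were taken on day 8, as were cells with the empty expression vector, here the expression control. Cells with a short hairpin RNA against Setdb1 (which methylates histone H3) were taken on day 7, like cells carrying the empty knockdown vector, here the knockdown control. The medium contained serum in all groups, which itself carries sterols and fatty acids. The promoters that drive the transgenes, the hairpin sequence and whether the cultures were clones are not given in the sources used here. With 1 library per group there is no replicate check on any difference below and no test between conditions.

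SREBP transcription factors, encoded by Srebf1 and Srebf2, govern both routes. They are made as membrane proteins of the endoplasmic reticulum and travel with the escort protein Scap to the Golgi, where proteases release the active part. When sterols are plentiful, Insig proteins hold Scap back. The Srebf2 product acts mainly on cholesterol genes and the Srebf1 products mainly on fatty acid genes, and promoters of such genes often pair a sterol regulatory element with a CCAAT box bound by NF-Y.

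Upstream sequences are shown first, since 11 of these genes (31.4%) were at least 2-fold lower with Setdb1 knockdown, against 10.3% of all genes compared. RefSeq start sites (assembly GRCm38.p6) within 500 bases of the deposited gene start were found for 26 of the 35 genes and for 7921 of the genes compared, and the 250 bases before each start were searched on both strands. The letters TCACNCCA, a core of the sterol regulatory element, were present in 3 of the 26 windows (11.5%) and in 3.16% of all 7921. CCAAT was present in 19 of 26 (73.1%) against 37.0%, and the GC box GGGCGG in 73.1% against 62.2%. The E-box CACGTG was present in 11.5% against 8.91%, and CAGCTG, an E-box that Myod1 can bind, in 11.5% against 11.6%. Copies of AGGTCA 1 base apart, the arrangement bound by Pparg with its partner, were in 0 of the 26 windows and in 0.0252% of all. A TCACNCCA match can overlap a CCAAT match, and a match of letters is a description, not a bound site. The 3 windows with TCACNCCA were those of Hmgcs1, Msmo1 and Srebf2. Where the RefSeq start lies inside the deposited gene, the window runs into that gene. This holds for 214 of the 250 bases in Msmo1, 180 in Thrsp, 105 in Idi1, 95 in Acss2 and 88 in Srebf2, among others. The Msmo1 match lies inside the deposited gene, and the Srebf2 match lies before its deposited start. The windows of 3 genes are printed in full: Hmgcs1 holds the core and CCAAT and was lower with Setdb1 knockdown, Mvk holds the most CCAAT and was near its control, and Acly holds neither and was lower. Each runs 5′ to 3′ on the strand of the gene, and capitals mark TCACNCCA, CCAAT and CACGTG on either strand.

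The Hmgcs1 window (chr13:119690101-119690350, plus strand), the Mvk window (chr5:114444019-114444268, plus strand) and the Acly window (chr11:100528001-100528250, minus strand) read as follows.
Hmgcs1: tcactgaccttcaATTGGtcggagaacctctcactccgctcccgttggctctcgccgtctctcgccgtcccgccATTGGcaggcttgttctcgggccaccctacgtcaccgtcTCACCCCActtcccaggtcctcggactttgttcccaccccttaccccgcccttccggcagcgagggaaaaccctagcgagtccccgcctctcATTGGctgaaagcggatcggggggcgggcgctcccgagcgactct
Mvk: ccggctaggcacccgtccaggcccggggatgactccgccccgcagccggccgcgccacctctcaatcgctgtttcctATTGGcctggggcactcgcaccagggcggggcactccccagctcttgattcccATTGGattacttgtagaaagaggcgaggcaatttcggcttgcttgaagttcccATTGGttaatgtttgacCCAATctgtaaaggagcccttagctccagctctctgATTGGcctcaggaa
Acly: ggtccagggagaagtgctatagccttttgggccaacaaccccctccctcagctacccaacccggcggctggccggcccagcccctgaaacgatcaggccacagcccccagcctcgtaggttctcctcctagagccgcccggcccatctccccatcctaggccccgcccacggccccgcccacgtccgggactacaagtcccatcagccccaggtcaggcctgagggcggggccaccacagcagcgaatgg

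The Srebf2 core lies 162 bases before its RefSeq start (chr15:82147097-82147124, plus strand) and is shown with 10 bases on each side, since Srebf2 is the regulator of the cholesterol route.
Srebf2: tgacgcaccaTCACCCCAtgagccgctt

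Of the 8 genes with a window that were at least 2-fold lower with Setdb1 knockdown, 4 held CCAAT and 1 held TCACNCCA. Among the 18 other genes with a window, 15 held CCAAT and 2 held TCACNCCA. CCAAT was thus held by a larger share of the genes that were not 2-fold lower, and the share with TCACNCCA was close in both. These counts were not tested.

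The libraries held 16214802 to 18300670 reads assigned to genes, recovered from the deposited FPKM (fragments per kilobase of gene length, as scaled by the authors). Counting intervals below are at 95% and cover counting error only, since no molecular identifiers are stated. The 3 targeted genes followed their labels: Myod1 and Pparg had an FPKM of 260 and 44.4 in their own libraries and 0 in the others, and Setdb1 had 0.867 with the hairpin and 9.82 in its control. All 9 melanocyte markers examined were present, with a summed FPKM of 10528 and 10115 in the controls, 10078 with Setdb1 knockdown, 4031 with Myod1 and 3375 with Pparg. At least 2-fold lower were Mitf (-1.54) and Slc45a2 (-1.49) with Setdb1 knockdown. With Myod1 6 were, Gpnmb, Dct, Mitf, Tyr, Tyrp1 and Pmel (-1.90 to -1.27), and with Pparg 7, Pmel, Dct, Tyrp1, Mlana, Gpnmb, Tyr and Slc45a2 (-2.49 to -1.05). The 7 fat cell markers summed to 301 with Pparg, nearly all of it Fabp4 and Cd36, and to at most 0.279 elsewhere. Lep was listed at 0 in all 5 libraries and Adipoq reached at most 0.0783. The 6 skeletal muscle markers summed to 21093 with Myod1 and to 14.8 with Pparg, 14.9 with Setdb1 knockdown, 6.59 in the expression control and 5.16 in the knockdown control, where Des was at least 2-fold higher with Setdb1 knockdown (1.35). The 5 fibroblast markers summed to 0.438 to 2.50, with Dcn and Lum at 0, and the 5 leukocyte markers to 1.88 to 18.7, nearly all of it Cd68, with Cd3e at 0. Cd68, also made by other cells, stood at 1.98 with Setdb1 knockdown, -1.31 with Myod1 and -2.20 with Pparg, and the 2 controls differed by -1.40. The part of these markers in the results below was not tested. In bulk samples fewer cells of a type and less RNA per cell cannot be told apart.

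A gene was compared when it reached an FPKM of 1 in at least 1 library. All 35 genes passed, and so did 12842 genes in all. The log2 ratio is that of FPKM + 1, treated against control, which understates changes of low values, and a gene is counted as higher or lower at 2-fold or more. Between the 2 control libraries 0 of the 35 genes were at least 2-fold higher and 0 lower in the knockdown control, where 1.23% and 1.44% of all genes compared were. The median of the cholesterol genes was -0.04 and that of the fatty acid genes 0.00. The largest difference between the controls was that of Acss2, at -0.69.

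**Figure D1:**
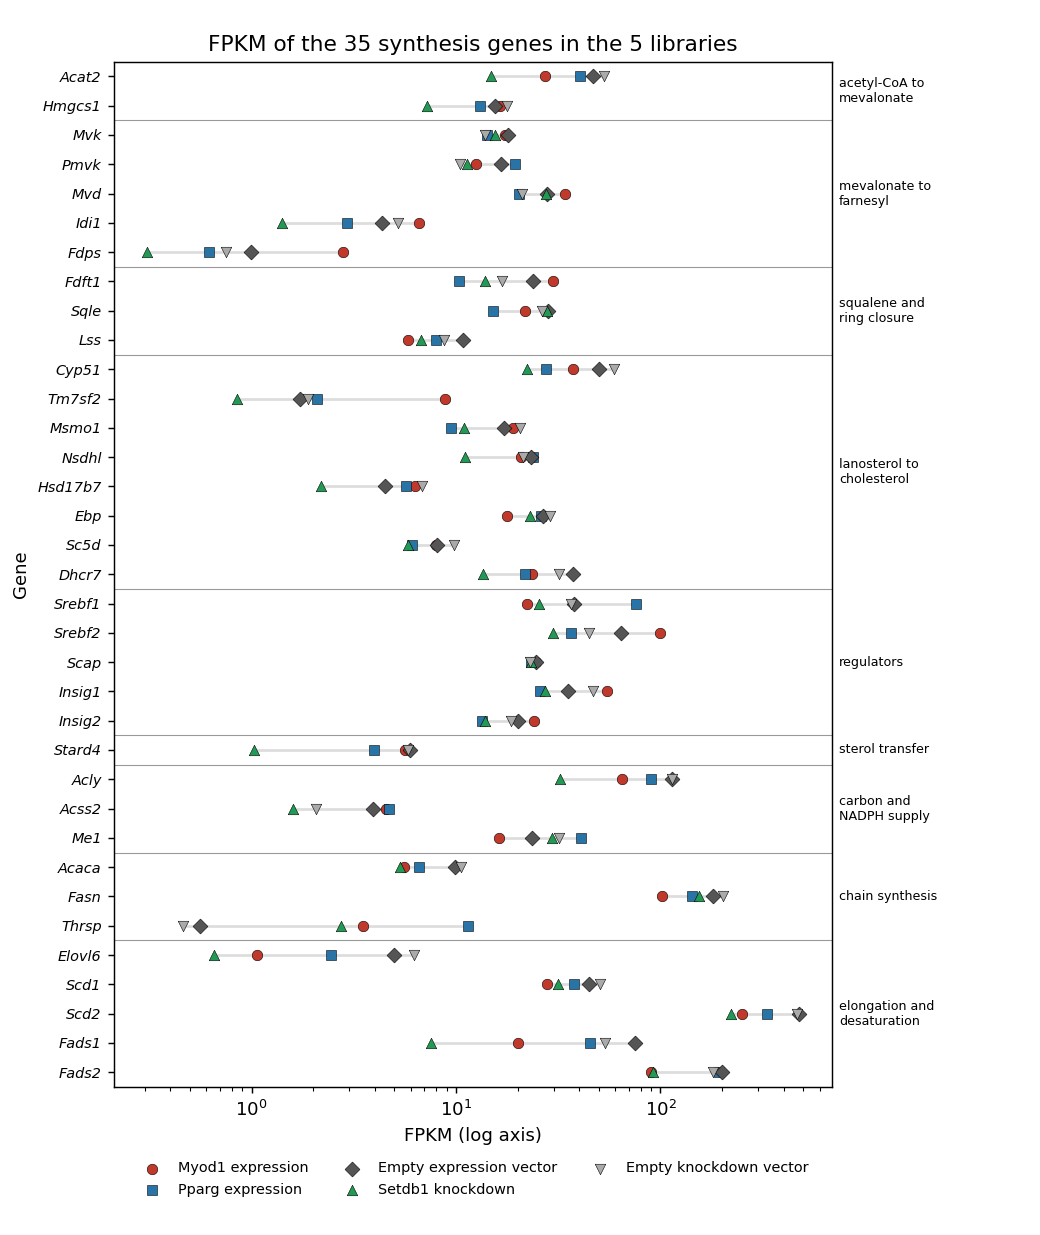
FPKM of each of the 35 genes (log axis, horizontal) in the 5 libraries, 1 point per library, with genes grouped by step of the pathway. The Setdb1 knockdown point is the lowest of the 5 for 18 of the 35 genes, against 27.0% of all genes compared, and the 2 control points lie close together for most genes.

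With Setdb1 knockdown many of these genes were lower. Against the knockdown control 11 of the 35 (31.4%) were at least 2-fold lower, against 10.3% of all genes compared, and 1 was at least 2-fold higher, against 9.34%. Lower were 7 cholesterol genes (Acat2, Hmgcs1, Idi1, Cyp51, Hsd17b7, Dhcr7 and Stard4) and 4 fatty acid genes (Acly, Elovl6, Scd2 and Fads1), and the gene that was higher was Thrsp. Of the 11 genes 10 were at least 2-fold lower against both controls, against 7.56% of all genes, the exception being Hsd17b7. The knockdown value lay below both controls for 28 of the 35 genes, against 40.3% of all genes. The median log2 ratio was -0.66 for the 19 cholesterol genes and -0.88 for the 11 fatty acid genes, where all genes compared stood at 0.00.

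The summed FPKM of the 35 genes was 916 with Setdb1 knockdown and 1646 in its control, that is 55.7%. The steps differed widely in this sum. Acat2 and Hmgcs1 together kept 31.3% of the control sum, the 8 genes from lanosterol to cholesterol 49.7% and the 5 elongation and desaturation genes 46.8%. The 5 genes from mevalonate to farnesyl diphosphate stood at 109%, although Idi1 and Fdps among them were lower, and their sum of 55.9 lay above the knockdown control (51.2) but below the expression control (67.7). The sum of the 3 genes of squalene and ring closure was at 93.2%. Proliferation genes moved in the same library: all 8 examined, from Mki67 to Pcna, were at least 2-fold lower, with a summed FPKM of 131 against 555, and their part in the result was not tested. Transcript GC content had a median of 49.5% in the 35 genes and 50.1% in all genes compared. With the trend along GC removed, 9 genes were at least 2-fold lower, beside 8.94% of all genes: Hmgcs1 (-0.81), Idi1 (-0.998) and Hsd17b7 (-0.97) were not among them and Fads2 (-1.21) was.

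**Figure D2:**
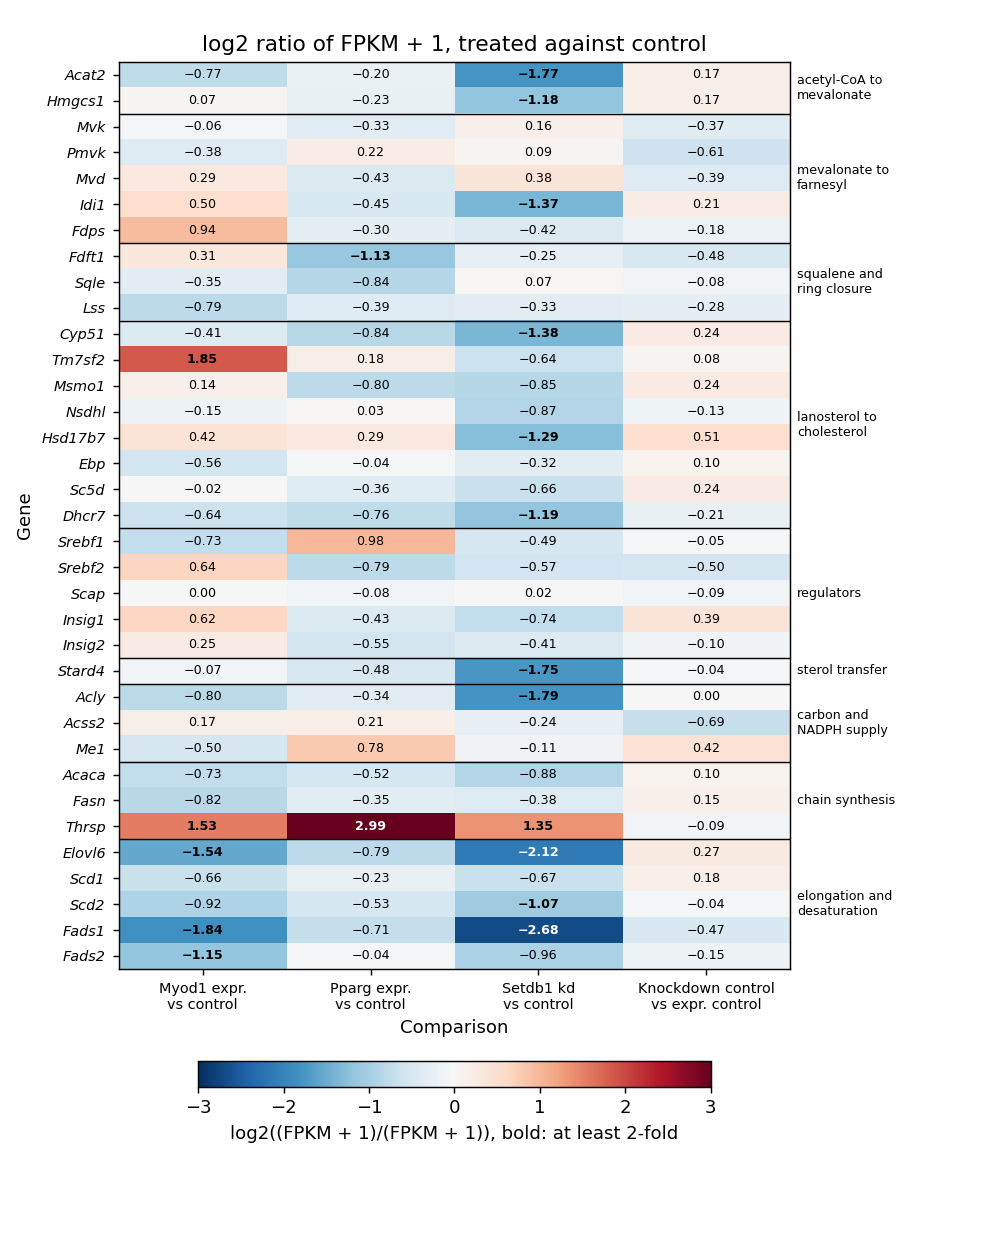
log2 ratio of FPKM + 1 for each gene, from top to bottom by pathway step, in the 3 treated against control comparisons and between the 2 controls from left to right, with blue for lower, red for higher and bold numbers at 2-fold or more. Bold values are 12 with Setdb1 knockdown, 5 with Myod1 expression, 2 with Pparg expression and 0 between the controls. Of all genes compared 9.34% were at least 2-fold higher and 10.3% lower with Setdb1 knockdown, and 14.0% and 7.55% with Myod1. With Pparg these shares were 4.22% and 2.3%, and between the controls 1.23% and 1.44%.

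With Myod1 expression the fatty acid genes stood lower than the cholesterol genes, a difference that further genes of the 2 routes did not show (medians of -0.48 and -0.52). Against the expression control 2 of the 35 genes were at least 2-fold higher, Tm7sf2 and Thrsp, against 14.0% of all genes compared. Another 3 were at least 2-fold lower, Elovl6, Fads1 and Fads2, against 7.55%. Against both controls 2 were higher, where 11.9% of all genes were, and 2 were lower, where 4.42% were, since Fads2 stood at -0.9996 against the knockdown control. The median log2 ratio was -0.06 for the cholesterol genes and -0.80 for the fatty acid genes, beside 0.02 for all genes. The Myod1 value lay below both controls for 9 of 11 fatty acid genes and for 9 of 19 cholesterol genes, and for 19 of all 35, where 40.5% of all genes did.

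The scaling of the Myod1 library weighs on these counts, because its FPKM sum to 420545 and those of the other libraries to between 297582 and 326960. Division by that sum moved the median of all genes by -0.285 and gave 2 higher and 12 lower genes, where 9.63% and 14.9% of all genes were higher and lower, while matching the 75th percentile shifted that median by -0.13 and gave 2 higher and 5 lower, beside 11.6% and 10.4% of all genes. The cholesterol median went to -0.40 under the sum and the fatty acid median to -1.19. A scaling shifts both medians by nearly the same amount, so these values are no test of the difference between them. Of the 8 proliferation genes 7 were at least 2-fold lower in this comparison, with a summed FPKM of 216 against 556, and their part was not tested.

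With Pparg expression few of these genes moved 2-fold against the same control. Of the 35 genes 1 was at least 2-fold higher, Thrsp, against 4.22% of all genes, and 1 was lower, Fdft1, against 2.3%. Against both controls 0 were lower, beside 0.849% of all genes. Smaller shifts were mostly downward: 24 of the 35 lay below both controls, against 39.3% of all genes. The median log2 ratio was -0.36 for the cholesterol genes and -0.34 for the fatty acid genes, beside -0.02 for all genes. Above both controls were 7 genes, Pmvk, Tm7sf2, Nsdhl, Srebf1, Acss2, Me1 and Thrsp, a smaller share than the 35% of all genes. The proliferation genes summed to 380 against 556, with 1 of 8 at least 2-fold lower, and their part was not tested. Because the Myod1 and Pparg comparisons share 1 control library, a low or high value there enters both.

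**Figure D3:**
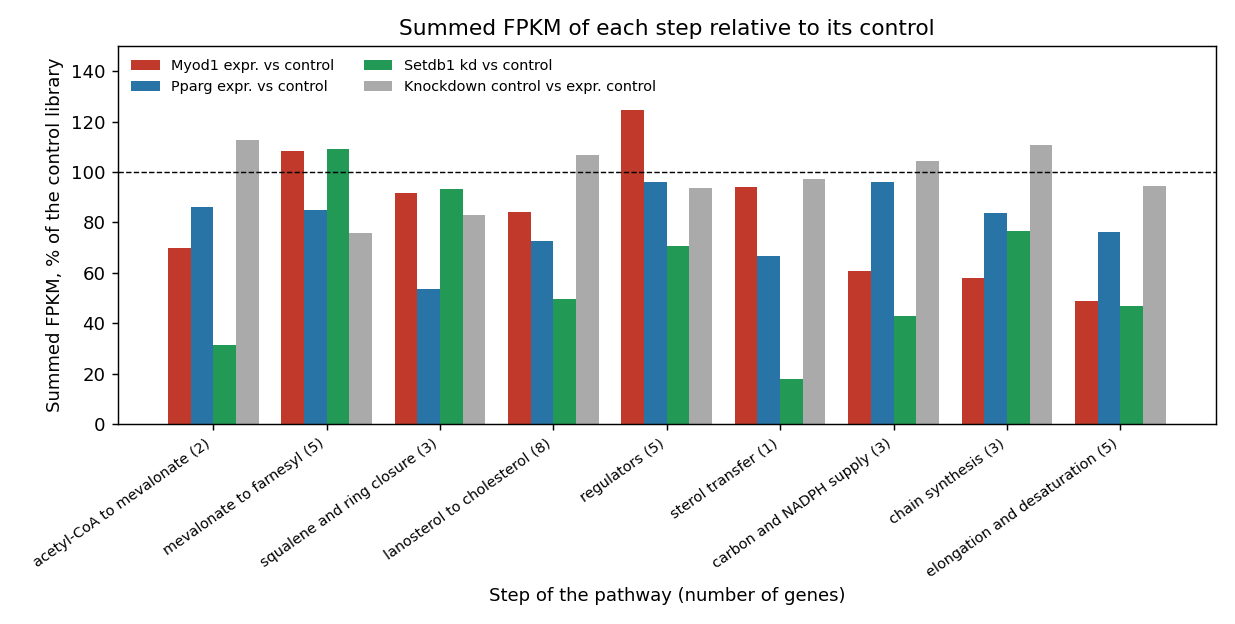
Summed FPKM of the genes of each step in a library, as percent of the sum in its control library (vertical axis from 0), with 1 bar per comparison and the dashed line at 100%. The Setdb1 knockdown bars are at 31.3% for acetyl-CoA to mevalonate and at 109% for mevalonate to farnesyl, and the bars between the controls lie from 75.6% to 113%.

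The regulators were described gene by gene. Srebf2 (ENSMUSG00000022463, chromosome 15, 82147181 to 82205379, plus strand, GRCm38) had an FPKM of 99.9 with Myod1 expression, 36.5 with Pparg expression, 63.8 in the expression control, 29.9 with Setdb1 knockdown and 44.9 in the knockdown control. On the deposited scale it was highest of the 5 with Myod1 and lowest with Setdb1 knockdown, but the 2 controls were themselves apart (-0.50). Its log2 ratio with Myod1 was 0.64 against the expression control and 1.14 against the knockdown control, and the former was 0.25 after division by the FPKM sum and 0.45 with 75th percentile scaling.

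Srebf1 (ENSMUSG00000020538, chromosome 11, 60199089 to 60222581, minus strand) stood opposite to Srebf2 with Myod1 and with Pparg, and was lower like it with Setdb1 knockdown (-0.49). Its FPKM was 22.3 with Myod1 expression, 75.6 with Pparg expression, 37.7 in the expression control, 25.5 with Setdb1 knockdown and 36.4 in the knockdown control. The Pparg value was 2.005 times the control value (counting interval 1.93 to 2.09), a log2 ratio of 0.98 that falls just short of the limit and passes it against the knockdown control (1.04). The Myod1 value was 59.1% of the control value (counting interval 55.9% to 62.4%), a log2 ratio of -0.73. Within a library, Srebf2 stood at 4.49 times the FPKM of Srebf1 with Myod1 (counting interval 4.28 to 4.71) and at 0.483 times with Pparg (0.466 to 0.500). In the expression control this ratio of levels was 1.69 (1.63 to 1.76), in the knockdown control 1.24 (1.18 to 1.29) and with Setdb1 knockdown 1.17 (1.12 to 1.23). The 2 transgenes thus lay on opposite sides of both controls, and the knockdown interval overlapped that of its own control.

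Scap, the escort of the SREBPs, hardly varied. Its FPKM was 24.7 with Myod1 expression, 23.2 with Pparg expression, 24.6 in the expression control, 23.4 with Setdb1 knockdown and 23.1 in the knockdown control. All 5 values lay within a narrow band, and the log2 ratios were 0.00, -0.08 and 0.02 with Myod1, Pparg and the Setdb1 hairpin. Division by the FPKM sum took the Myod1 ratio to -0.37 and turned the sign of the other 2 ratios, to 0.02 and -0.06.

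The Insig genes encode the sterol-dependent anchors, and Insig1 is itself an SREBP target. Insig1 FPKM was 54.7 with Myod1 expression, 25.9 with Pparg expression, 35.3 in the expression control, 27.4 with Setdb1 knockdown and 46.5 in the knockdown control. On the deposited scale it was highest with Myod1 and lowest with Pparg, at log2 ratios of 0.62 and -0.43. The Insig1 ratio with Myod1 was 0.23 after division by the FPKM sum and 0.23 against the knockdown control. It stood at -0.74 with Setdb1 knockdown, while the controls differed by 0.39. Insig2, the second anchor, had an FPKM of 24.1 with Myod1 expression, 13.4 with Pparg expression, 20.04 in the expression control, 13.8 with Setdb1 knockdown and 18.7 in the knockdown control. Its values followed the same order at the top, with Myod1 above and both other treated libraries below the controls, though division by the FPKM sum turned the Myod1 ratio of Insig2 from 0.25 to -0.12. By the log2 ratio of FPKM + 1, none of the 5 regulators was at least 2-fold higher or lower in any comparison with its own control. Srebf1 with Pparg, at 2.005 times its control in FPKM, fell just short (0.98). Of all genes compared 14.0% were higher and 7.55% lower with Myod1, 4.22% and 2.3% with Pparg, and 9.34% and 10.3% with Setdb1 knockdown.

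**Figure D4:**
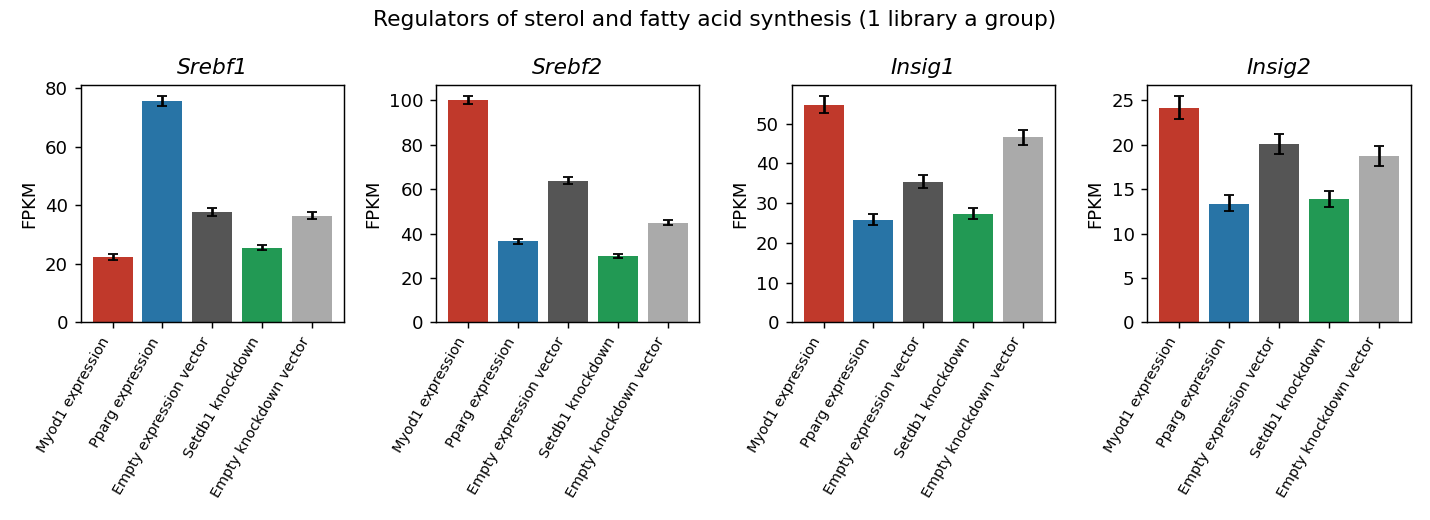
FPKM (vertical axis, from 0) of Srebf1, Srebf2, Insig1 and Insig2 in the 5 libraries, 1 library per bar, with error bars for the 95% counting interval. Srebf1 is highest in the Pparg library at 75.6, and Srebf2, Insig1 and Insig2 are highest in the Myod1 library at 99.9, 54.7 and 24.1 on the deposited scale, where the ratio of Insig2 to its control changes sign after division by the FPKM sum.

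At the entry of the cholesterol route, Acat2 joins acetyl-CoA units in the cytosol. Its FPKM was 27.1 with Myod1 expression, 40.6 with Pparg expression, 46.9 in the expression control, 14.8 with Setdb1 knockdown and 52.8 in the knockdown control. The treated libraries were all below both controls, and Setdb1 knockdown was lowest at 28.04% of the control value (counting interval 25.7% to 30.5%), a log2 ratio of -1.77. Of the 50-base windows of its longest transcript, 45.9% also occur in other genes, mostly Acat3, and the treatment of such reads is not given in the sources used here. Hmgcs1, the synthase that makes HMG-CoA, had an FPKM of 16.4 with Myod1 expression, 13.1 with Pparg expression, 15.6 in the expression control, 7.23 with Setdb1 knockdown and 17.7 in the knockdown control. Only the knockdown value stood apart, at 40.9% of the control value (counting interval 37.1% to 44.98%) and a log2 ratio of -1.18, and it was -1.01 against the other control.

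The next genes carry mevalonate to farnesyl diphosphate, and most of them did not follow the entry step. Mvk, the kinase of mevalonate, lay between 13.8 in the knockdown control and 18.1 in the expression control, so every treated value fell between the controls. Pmvk, the kinase of the following step, ranged from 10.5 in the knockdown control to 19.5 with Pparg. Mvd, the decarboxylase, had an FPKM of 34.1 with Myod1 expression, 20.3 with Pparg expression, 27.7 in the expression control, 27.5 with Setdb1 knockdown and 20.9 in the knockdown control. For these 3 genes the log2 ratios with Setdb1 knockdown were 0.16, 0.09 and 0.38, and the controls differed by as much or more in the other direction (-0.37, -0.61 and -0.39).

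Idi1, the isomerase that makes the second isoprene unit, stood apart from these. Its FPKM was 6.57 with Myod1 expression, 2.93 with Pparg expression, 4.37 in the expression control, 1.40 with Setdb1 knockdown and 5.22 in the knockdown control. On the deposited scale Idi1 was highest with Myod1 (0.50, and 0.16 after division by the FPKM sum), and it was lowest with Setdb1 knockdown, where 91 reads against 306 gave 26.9% of the control value (counting interval 21.02% to 34.1%) and a log2 ratio of -1.37. Its transcript shares 30.5% of 50-base windows with other genes, most of them with Gm13502. Fdps, the farnesyl diphosphate synthase, was the lowest member of this step, with an FPKM of 2.81 with Myod1 expression, 0.620 with Pparg expression, 0.989 in the expression control, 0.308 with Setdb1 knockdown and 0.753 in the knockdown control. It rested on 24 to 186 reads and was highest with Myod1, at 2.84 times the control value (counting interval 2.14 to 3.81), though its log2 ratio of 0.94 with the added 1 is below the limit. With Setdb1 knockdown it was at 40.9% of the control value (counting interval 24.2% to 67.5%). That log2 ratio was -0.42 with the added 1. Fdps overlaps the annotated Gm43738 over 1124 exon bases on the same strand, so its level is uncertain.

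Fdft1, Sqle and Lss make squalene, oxidise it and close the sterol ring. Fdft1 had an FPKM of 29.7 with Myod1 expression, 10.3 with Pparg expression, 23.8 in the expression control, 13.9 with Setdb1 knockdown and 16.7 in the knockdown control. It was lowest with Pparg, at 43.4% of the control value (counting interval 39.9% to 47.2%). It was highest with Myod1 on the deposited scale (0.31), a ratio that division by the FPKM sum turned to -0.07. The Pparg log2 ratio was -1.13 against the expression control but -0.64 against the knockdown control, and the controls differed by -0.48. Its exons overlap those of Ctsb on the opposite strand over 774 bases, and the library kit named in the labels does not mark strand. Ctsb reached an FPKM of 277.

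Sqle, the squalene epoxidase, had an FPKM of 21.8 with Myod1 expression, 15.2 with Pparg expression, 28.1 in the expression control, 27.8 with Setdb1 knockdown and 26.5 in the knockdown control. It too was lowest with Pparg (-0.84), and with Setdb1 knockdown it stood at 0.07, between the controls, and dividing by the FPKM sum took it to -0.01. Lss, the lanosterol synthase, was below both controls in all 3 treated libraries, at -0.79 with Myod1, -0.39 with Pparg and -0.33 with knockdown. With Setdb1 knockdown the summed level of this step (93.2% of control) was above that of the next one (49.7%).

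From lanosterol to cholesterol, all 8 genes were below both controls with Setdb1 knockdown, and 3 of them by 2-fold or more against the knockdown control, where 40.3% and 10.3% of all genes were. Cyp51, which removes a methyl group from lanosterol, had an FPKM of 37.4 with Myod1 expression, 27.5 with Pparg expression, 49.9 in the expression control, 22.2 with Setdb1 knockdown and 59.2 in the knockdown control. The treated values all lay below both controls, and knockdown was lowest at 37.5% of the control value (counting interval 35.4% to 39.6%), a log2 ratio of -1.38. Dhcr7, the last reductase of one branch, had an FPKM of 23.6 with Myod1 expression, 21.7 with Pparg expression, 37.3 in the expression control, 13.5 with Setdb1 knockdown and 32.0 in the knockdown control. It showed the same order of control above treated, with a log2 ratio of -1.19 with knockdown, -0.76 with Pparg and -0.64 with Myod1.

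Hsd17b7, a ketosteroid reductase, had an FPKM of 6.33 with Myod1 expression, 5.67 with Pparg expression, 4.47 in the expression control, 2.19 with Setdb1 knockdown and 6.80 in the knockdown control. Its knockdown value was the lowest of 5, but the controls differed by 0.51, and the log2 ratio of -1.29 against the knockdown control was -0.78 against the expression control. Msmo1, the methylsterol oxidase, was lowest with Pparg at 9.45, followed by knockdown at 10.9, with the other 3 libraries between 17.1 and 20.5. Nsdhl, which acts on the same methyl groups, was 11.1 with knockdown and between 20.8 and 23.8 elsewhere. Ebp and Sc5d, an isomerase and a desaturase of late steps, had log2 ratios of -0.32 and -0.66 with knockdown.

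Tm7sf2, a sterol reductase, was the cholesterol gene with the largest increase. Its FPKM was 8.85 with Myod1 expression, 2.10 with Pparg expression, 1.73 in the expression control, 0.850 with Setdb1 knockdown and 1.89 in the knockdown control. The Myod1 value was the highest, with 778 reads against 158 in its control, at 5.12 times the control value (counting interval 4.31 to 6.11). The log2 ratio with Myod1 was 1.85, 1.77 against the other control and 1.52 after division by the FPKM sum. The Setdb1 knockdown value was the lowest, at 44.9% of its control value (counting interval 34.4% to 58.3%). With the added 1 that log2 ratio was -0.64, short of the limit. In the GENCODE M21 annotation Tm7sf2 shares 532 exon bases with Vps51 on the same strand. Of the 35 genes 30 have their deposited position in that annotation. The FPKM of Vps51 was at most 0.489, but the treatment of shared reads is not given, so the level of Tm7sf2 is uncertain.

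Stard4 carries sterols between membranes and is an SREBP target. Its FPKM was 5.62 with Myod1 expression, 3.99 with Pparg expression, 5.97 in the expression control, 1.03 with Setdb1 knockdown and 5.80 in the knockdown control. The other 4 libraries lay between 3.99 and 5.97, and the knockdown library alone was low, at 17.7% of the control value (counting interval 14.2% to 21.8%). The log2 ratio was -1.75, and -1.78 against the other control.

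Fatty acid synthesis starts with the supply of acetyl-CoA and NADPH. Acly splits citrate to release cytosolic acetyl-CoA, and its FPKM was 64.9 with Myod1 expression, 89.8 with Pparg expression, 114 in the expression control, 32.2 with Setdb1 knockdown and 114 in the knockdown control. The controls were alike, all treated values were lower, and knockdown was lowest at 28.3% of the control value (counting interval 27.2% to 29.5%), a log2 ratio of -1.79. Acss2, which makes acetyl-CoA from acetate, ranged from 1.60 with knockdown to 4.70 with Pparg. With controls at 3.94 and 2.07, its ratios depend on the control chosen. Me1, the cytosolic malic enzyme that yields NADPH, had an FPKM of 16.2 with Myod1 expression, 40.9 with Pparg expression, 23.4 in the expression control, 29.3 with Setdb1 knockdown and 31.7 in the knockdown control. It was highest with Pparg (0.78, and 0.36 against the other control) and lowest with Myod1 (-0.50). Me1 shares 32.8% of its windows with other genes, most of them with Gm7049.

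Chain synthesis runs on Acaca, the carboxylase that makes malonyl-CoA, and Fasn, the fatty acid synthase. Acaca FPKM was 5.54 with Myod1 expression, 6.56 with Pparg expression, 9.86 in the expression control, 5.33 with Setdb1 knockdown and 10.6 in the knockdown control. Controls exceeded all 3 treated libraries, with log2 ratios from -0.88 to -0.52. Its transcript shares 52.6% of windows with the annotated gene Gm5182. Fasn, at 102 with Myod1 expression, 142 with Pparg expression, 181 in the expression control, 154 with Setdb1 knockdown and 201 in the knockdown control, had the same order of controls above treated libraries. Its lowest value was that of Myod1 at 56.3% of the control value (counting interval 55.3% to 57.4%), and its log2 ratios were -0.82, -0.35 and -0.38 with Myod1, Pparg and knockdown. Fasn thus kept more of its control value under Setdb1 knockdown than Acly did, although both were among the most abundant members.

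Thrsp, a small protein that promotes fatty acid synthesis in fat and liver, stood against the rest. Its FPKM was 3.52 with Myod1 expression, 11.4 with Pparg expression, 0.559 in the expression control, 2.74 with Setdb1 knockdown and 0.464 in the knockdown control. Each treated library was above both controls. The reads were 20 and 17 in the controls, 121 with Myod1, 111 with knockdown and 478 with Pparg. The Pparg value was 20.4 times the control value (counting interval 13.04 to 33.7), and the log2 ratios were 2.99 with Pparg, 1.53 with Myod1 and 1.35 with knockdown.

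The elongation and desaturation genes include Elovl6 and Fads1, with the lowest log2 ratios of the 35 genes under Setdb1 knockdown. Elovl6, which extends palmitate, had an FPKM of 1.06 with Myod1 expression, 2.44 with Pparg expression, 4.97 in the expression control, 0.655 with Setdb1 knockdown and 6.21 in the knockdown control. Every treated value was below both controls, and knockdown stood at 10.6% of the control value (counting interval 8.24% to 13.4%). The log2 ratios were -2.12 with knockdown, -1.54 with Myod1 and -0.79 with Pparg.

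Fads1 and Fads2, desaturases that make polyunsaturated fatty acids, lie near each other on chromosome 19, transcribed away from each other and separated by 81385 bases (GRCm38). Whether other genes lie between them was not examined. Fads1 (ENSMUSG00000010663, chromosome 19, 10182888 to 10196870, plus strand) had an FPKM of 20.1 with Myod1 expression, 45.3 with Pparg expression, 74.6 in the expression control, 7.52 with Setdb1 knockdown and 53.7 in the knockdown control. The knockdown value was 14.0% of the control value (counting interval 12.7% to 15.4%), and its log2 ratio of -2.68 was the lowest of all 35 genes in any comparison with its own control, although with a pseudocount of 0.1 Elovl6 (-3.06) was below Fads1 (-2.82). With Myod1 it was -1.84. Fads2 (ENSMUSG00000024665, chromosome 19, 10064164 to 10101503, minus strand) had an FPKM of 89.4 with Myod1 expression, 194 with Pparg expression, 199.6 in the expression control, 92.1 with Setdb1 knockdown and 179.8 in the knockdown control. It was lower with Myod1 (-1.15) and with knockdown (-0.96), and with Pparg it was close to its control (-0.04). The 2 genes were not lowered alike under knockdown: Fads2 stood at 12.2 times the FPKM of Fads1 there (counting interval 11.1 to 13.5), against 3.35 (3.20 to 3.50) in the knockdown control, and the ratio was between 2.67 and 4.46 in the other 3 libraries.

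Scd1 and Scd2, the stearoyl-CoA desaturases, also lie near each other on chromosome 19, 87587 bases apart. Scd2 was the most abundant of the 35 genes in every library, with an FPKM of 251 with Myod1 expression, 331 with Pparg expression, 478 in the expression control, 222 with Setdb1 knockdown and 466 in the knockdown control. Both controls were above all treated libraries, and knockdown was lowest at 47.6% of the control value (counting interval 46.9% to 48.4%), a log2 ratio of -1.07. Scd1 FPKM was 27.9 with Myod1 expression, 37.9 with Pparg expression, 44.6 in the expression control, 31.5 with Setdb1 knockdown and 50.9 in the knockdown control. It showed the same order of controls above treated libraries at log2 ratios of -0.66, -0.23 and -0.67. Scd2 stayed between 7.05 and 10.7 times the FPKM of Scd1 in the 5 libraries. The longest transcripts share 4.01% of the windows of Scd2 and 4.66% of those of Scd1 with other genes.

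Other genes of these routes moved in part with the members. Their list was drawn up with the design, with earlier results of these data known. Of 12 further sterol genes compared, 2 were at least 2-fold lower with Setdb1 knockdown, Tmem97 (-1.92), a sterol-responsive membrane protein, and Acat1 (-1.28), the mitochondrial thiolase, a count near the 10.3% of all genes. With Pparg 1 was lower, again Tmem97 (-1.07), and with Myod1 1, Npc1 (-1.30), which exports cholesterol from lysosomes, where 2.3% and 7.55% of all genes were lower. None of the 12 was at least 2-fold higher in any comparison with its own control, though Acat1 with Myod1, at an FPKM of 102.1 against 50.6, fell just short and stood at 1.18 against the knockdown control, and the median was -0.07 with Setdb1 knockdown, -0.26 with Pparg and -0.52 with Myod1. Of the SREBP proteases, Mbtps1 stood at -0.42, 0.00 and 0.45 with Myod1, Pparg and Setdb1 knockdown. Mbtps2 had an FPKM of 1.15 with Myod1 against 2.65, and 1.12 with Setdb1 knockdown against 2.48, more than 2-fold apart in FPKM, while its log2 ratios with the added 1 were -0.77 and -0.71.

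Of 19 further fatty acid and glyceride genes compared, 4 were at least 2-fold lower with Setdb1 knockdown and 0 higher, beside 10.3% and 9.34% of all genes. These were the elongase Elovl5 (-1.80), the elongation reductase Hsd17b12 (-1.61) and the acyl-CoA synthetases Acsl3 (-1.59) and Acsl4 (-1.15). With Myod1 3 were higher, Hacd1 (3.55), a dehydratase of muscle, Acacb (2.06), the mitochondrial acetyl-CoA carboxylase, and Acsl1 (1.11), a count near the 14.0% of all genes. The 3 that were lower with Myod1 were G6pdx (-2.11) and Pgd (-1.06), which yield NADPH, and the citrate carrier Slc25a1 (-1.17), beside 7.55% of all genes. Acacb had an FPKM of 18.1 with Myod1 and 3.58 in its control, where Acaca had 5.54 and 9.86, so the order of the 2 FPKM values differed. Which carboxylase was the more abundant is uncertain. The deposited Acaca length is 17074 bases and its longest transcript 9513, and 52.6% of its windows are shared with Gm5182. With Pparg 1 was lower, Acsl3 (-1.04), beside 2.3% of all genes. The list medians were -0.48 with Myod1, -0.06 with Pparg and -0.25 with Setdb1 knockdown.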

How the data were processed

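The deposited table gives FPKM values of 54699 genes in 5 libraries, scaled by the authors in a way not given in the sources used here. CASAVA, HISAT2, featureCounts 1.5.0-p3 and the build GRCm38 are named per the submitters' processing notes, with no role stated. From FPKM and gene length, whole reads (within 0.01) were recovered for 100% of values, which gave counting intervals (Wilson for FPKM, exact for ratios, 95%). The depth by which FPKM were divided was 0.859 to 1.10 times these reads, so the authors' scaling was not by assigned reads alone. A gene was compared where 1 library or more reached an FPKM of 1, as log2 of FPKM + 1, with a limit of 2-fold. There were no replicates, so no test between groups was made. All 35 genes are described, and of the other pathway lists the genes past the limit, up to 6 a list and comparison. Marker and proliferation lists are given mostly as sums and counts. The members and lists were chosen with earlier results of these data known. Alternatives were another pseudocount, filter, limit, scaling and control. Removing the GC trend, and leaving out genes that share sequence, were added after seeing the data. Python 3.11.15, pandas 2.3.3 and scipy 1.17.1 were used, and reading and counting steps were tested on artificial data.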

Additional observations from a re-analysis of the deposited data

How the results depend on the processing

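Each count of genes at 2-fold or more was recomputed under 11 alternatives, or 9 for the comparison between the controls, where those on the choice of control do not apply. With a limit of 1.5-fold, 5 genes were higher and 12 lower with Myod1, 3 higher and 8 lower with Pparg, 19 lower with Setdb1 knockdown, and 2 lower between the controls. The shares of all genes at that limit were 24.4% and 19.3% with Myod1, 10.8% and 8.43% with Pparg, 21.9% lower with Setdb1 knockdown and 5.91% lower between the controls, so the 5 higher genes with Myod1 are a smaller share than among all genes. Against the other control library 4 genes were higher with Myod1 (Fdps and Srebf2 joined), and 2 were higher and 3 lower with Pparg, where 15.1%, 5.52% and 2.41% of all genes were. Division by the FPKM sum gave 12 lower genes with Myod1 and 2 higher with Pparg, and 75th percentile scaling gave 5 lower and 2 higher. The shares of all genes were 14.9% and 5.36% under the sum and 10.4% and 4.42% under the percentile. Centring on the median of all genes and a pseudocount of 0.1 also gave 2 higher genes with Pparg, beside 4.37% and 8.81% of all genes. In each of these Srebf1, which lies at the limit, was the added gene. Fdft1, the lower gene with Pparg, was not called against both controls, and it was among the 8 genes that share sequence with others, so both alternatives gave 0. Apart from the 1.5-fold limit, the lower genes with Setdb1 knockdown numbered 8 to 13, where 8 is the count among the 27 genes that share little sequence. The share of all genes moved too: it was 16.3% for the 13 genes with a pseudocount of 0.1, 10.99% for the 13 against the other control and 8.94% for the 9 with the GC trend removed. The genes added with a pseudocount of 0.1 were Fdps and Tm7sf2. No paired analysis was possible because each group holds 1 library. The lowest member value rested on 17 reads, and the spread between cultures is unknown.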

Other observations

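Of 6 listed genes of the oxysterol receptors (LXR), which are 2 receptors and 4 targets, 4 could be compared. With Pparg 2 of the 4 were at least 2-fold higher, Abca1 (1.09), the cholesterol exporter, and Mylip (1.07), a ubiquitin ligase, beside 4.22% of all genes. Lpcat3, a phospholipid acyltransferase, stood at 0.65 and Nr1h2, a receptor, at -0.11. Abca1 had an FPKM of 8.46 with Pparg, 3.46 in the expression control, 2.06 with Myod1, 1.76 with Setdb1 knockdown and 2.84 in the knockdown control. Mylip had an FPKM of 16.8 with Pparg and 14.9 with Setdb1 knockdown, against 7.52 and 7.14 in the expression and knockdown controls and 9.48 with Myod1. Abca1 was thus high in the Pparg library alone, and Mylip in both the Pparg and knockdown libraries. None of the 4 was at least 2-fold higher or lower with Myod1 or with Setdb1 knockdown, where Mylip stood at 0.97.

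Genes of NADPH and citrate supply were described by library. G6pdx, the first enzyme of the pentose phosphate route, had an FPKM of 23.3 with Myod1 and 72.6 with Pparg, and between 101.9 and 110.2 in the other 3 libraries. Its value with Setdb1 knockdown was the highest of the 5, in the library where Acly was lowest. Pgd, the later NADPH-yielding enzyme of that route, stood at -1.06 with Myod1, -0.25 with Pparg and 0.17 with Setdb1 knockdown, and Idh1 at -0.69, 0.04 and -0.58. Slc25a1, which exports citrate for Acly, had an FPKM of 104.7 with Pparg, 57.5 in the expression control, 40.8 in the knockdown control, 25.1 with Myod1 and 24.996 with Setdb1 knockdown.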
